A study of Mus musculus with 235 samples.

Results

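MRL/MpJ is an inbred mouse strain that the submitters recorded as free of steatosis, the storage of fat in liver cells, under isoniazid, an antibiotic against tuberculosis that can injure the liver. The liver response of this strain was read from 8 of 235 arrays, chosen by the strain and treatment in their labels: 4 animals given isoniazid and 4 given the vehicle, sterile water. All animals were female and 8 to 10 weeks old, and the labels name no engineered allele. They received 100 mg/kg isoniazid or the vehicle by oral gavage daily for 3 days, and the left lobe of the liver was collected 24 h after dosing ended. The comparison set was the isoniazid effect in each of the other 30 strains, 17 of them also without steatosis and 13 with it, over 227 arrays. Each array is 1 animal of 1 inbred strain, and whole tissue was measured, so the cells that carry a change are not resolved.

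The liver acetylates isoniazid with N-acetyltransferases, hydrolyses it and oxidises its products, and metabolites of isoniazid can react with pyridoxal phosphate, the active form of vitamin B6. Pyridoxal phosphate is the cofactor of aminotransferases and of 5-aminolevulinate synthase, which opens heme synthesis. The liver also packs triglyceride and cholesterol with apolipoproteins into lipoproteins, burns fatty acids in mitochondria under the nuclear receptor PPAR alpha, and makes the cytochromes P450 that handle drugs and steroids.

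The values are log2 expression levels, 1 per gene and animal, so a difference of 1 is a 2-fold difference. The 8 arrays had medians of 3.99 to 4.11, each correlated best with the mean of its own strain, and the 12 pairs of animals within a group had Pearson r of 0.974 to 0.994 across genes. One array stood apart. Isoniazid animal 1 was among 21 of the 235 arrays with a narrow spread of values (SD 2.19, against 2.25 to 2.31 on the other 7 MRL/MpJ arrays), and its median r with its own group was 0.974, against 0.991 for isoniazid animals 2, 3 and 4. The count of changed genes is therefore given with and without it, as are some of the genes and lists that it moved. Others given only once moved too, such as the median change of 18 clock genes, from 0.11 to 0.33 without this animal. Of the 31 genes described next, 7 missed the threshold when it alone was left out: Trmt10a, Mlec, Cope, Cyp3a16, Acot1, Mthfd2l and Pcp4l1. The hepatocyte markers Alb and Ttr, 2 major plasma proteins of the liver, lay between 13.65 and 14.58 in all 8 animals. Among the control probe sets, the 3' minus 5' signal of pyruvate carboxylase was 0.55 higher in isoniazid animals and the 3' signal of Gapdh 0.41 higher, each without overlap (two-sided exact permutation test, p = 0.0286, the smallest that 4 against 4 can give, adjusted p = 0.0857 over 6 measures). The same 3' minus 5' measure for actin (0.11, p = 0.257) and the transferrin receptor (0.03, p = 0.686) did not pass, by the same exact test, and what part RNA quality had in the results was not tested.

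The treated and control animals of MRL/MpJ were compared first. By limma, 31 of 18146 genes changed at a Benjamini-Hochberg adjusted p under 0.05, which is 0.171% of the genes, 17 higher (0.0937%) and 14 lower (0.0772%). Of the 31, 21 changed at least 1.5-fold, 9 higher and 12 lower. The highest rise was that of the apolipoprotein gene Apoa4 (3.13-fold), followed by Alas1, the first enzyme of heme synthesis (2.82-fold). The largest fall was that of Cyp3a16, a mouse cytochrome P450 of the 3A family (12.6-fold), followed by the serpin pseudogene Serpina4-ps1 (5.75-fold), the steroid enzyme gene Hsd3b5 (4.81-fold) and Acot1, which frees fatty acids from coenzyme A (3.96-fold). In 27 of the 31 the 4 isoniazid and 4 vehicle animals did not overlap, where 4.12% of all genes did not. The exceptions were Alas1, Gm7694, Atp5k and Pcp4l1. Across all genes the median change was 0.01.

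The call depended on which arrays were in the fit. Without isoniazid animal 1, 46 genes passed, of which 24 were among the 31. Without isoniazid animal 2 or 3, 12 and 8 passed, and without vehicle animal 1 or 4, 11 and 14. With all 21 narrow arrays of the series left out, 268 genes passed (1.48%), 228 higher (1.26%) and 40 lower (0.22%), and these held 30 of the 31, all but Pcp4l1. A fit of the 8 MRL/MpJ arrays alone called 0 genes by limma, with 1169 at an unadjusted p under 0.05, against 1163 in the fit of all arrays. Such a threshold gives on average 0.05 of the 18146 genes with no effect, and both counts are above that share. The 8 arrays had been scanned on 5 dates, and on the single date that held both treatments (vehicle animal 2, isoniazid animals 3 and 4) all 31 genes had the sign of the pooled change, at 0.50 to 1.57 times its size. Those arrays were also part of the pooled fit.

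**Figure D1:**
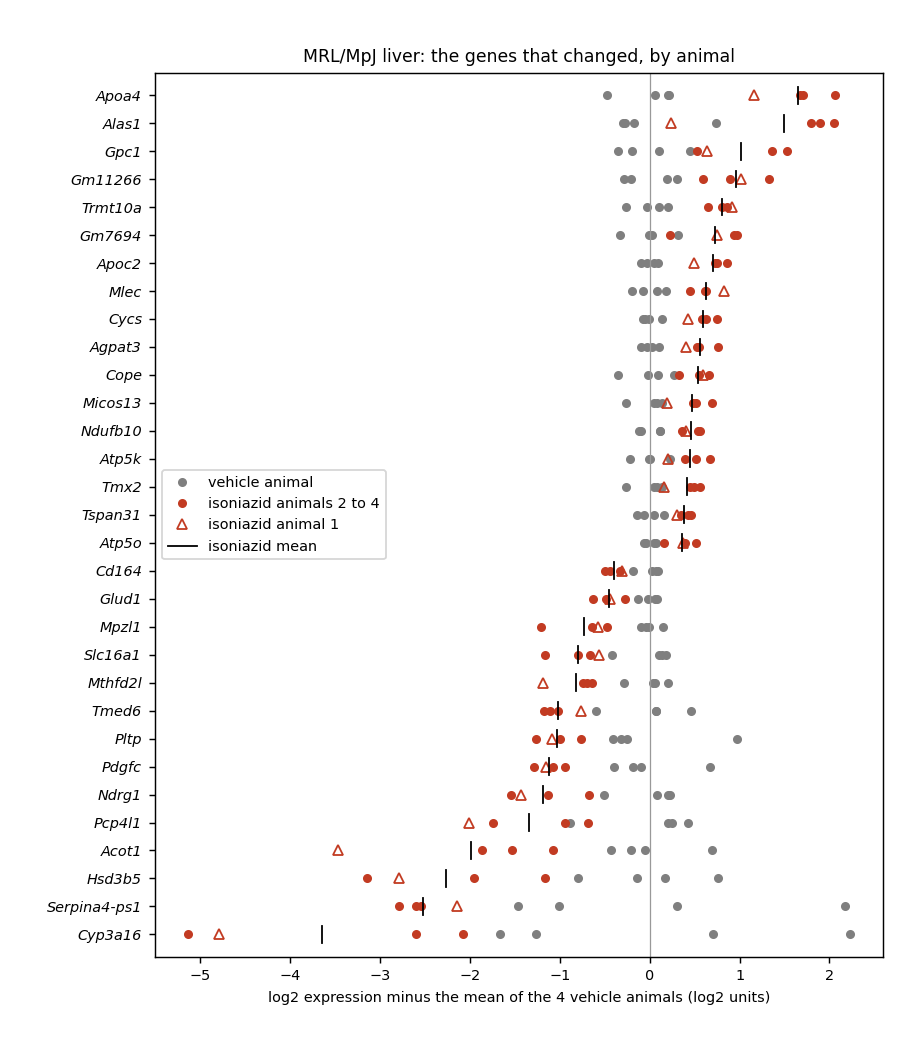
The 31 genes that changed in MRL/MpJ liver. The horizontal axis gives each animal's log2 level minus the mean of the 4 vehicle animals, in log2 units, with grey circles for vehicle animals, red circles for isoniazid animals 2 to 4, open triangles for isoniazid animal 1 and black bars for the isoniazid mean. For Alas1, isoniazid animals 2 to 4 (levels 11.65 to 11.91) lie to the right of all vehicle animals and isoniazid animal 1 (10.10) does not, while Acot1 fell furthest in isoniazid animal 1.

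Lipoprotein genes held the 2 firmest calls. Apoa4, an apolipoprotein of triglyceride-rich particles, measured 11.62, 11.77, 11.78 and 11.09 in the vehicle animals and 12.73, 13.23, 13.62 and 13.27 in the isoniazid animals. Every isoniazid animal lay above every vehicle animal, and the log2 change was 1.65 (SE 0.25, adjusted p = 1.62e-05). Apoc2, the activator of lipoprotein lipase, measured 11.26, 11.22, 11.14 and 11.08 with vehicle and 11.67, 11.93, 12.03 and 11.91 with isoniazid. The groups were again apart, with a log2 change of 0.71 (SE 0.13, adjusted p = 0.0016). Of the 31 genes, Apoa4 and Apoc2 were the only 2 that passed when any 1 of the 8 animals was left out, with ranges of 1.49 to 1.81 and 0.66 to 0.78. The other 29 each missed the threshold in at least 1 of those 8 fits. The Apoa4 probe set carries the suffix that marks probes which can bind related transcripts, and the second Apoa4 probe set gave 1.57.

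Pltp, which transfers phospholipid between lipoproteins, went the other way. It measured 8.76, 8.67, 10.05 and 8.82 with vehicle and 7.98, 8.07, 7.81 and 8.30 with isoniazid. The groups did not overlap, vehicle animal 3 stood above the other controls, and the log2 change was -1.03 (SE 0.21, adjusted p = 0.00409), or -0.71 without vehicle animal 3. Of 18 measured genes of lipoproteins and apolipoproteins, 2 rose, 1 fell and the other 15 did not pass, and the list's median was 0.04. Apoa5 and Apoc3, which raise and lower triglyceride clearance, had changes of 0.21 and 0.11 (adjusted p = 0.471 and 0.724).

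Alas1 makes 5-aminolevulinate in mitochondria with pyridoxal phosphate as cofactor. It measured 9.57, 9.58, 9.68 and 10.60 with vehicle and 10.10, 11.91, 11.65 and 11.75 with isoniazid. Isoniazid animals 2, 3 and 4 lay well above all controls, isoniazid animal 1 lay below vehicle animal 4, and the log2 change was 1.49 (SE 0.32, adjusted p = 0.00844). Without isoniazid animal 1 it was 1.91 (adjusted p = 0.000445), and within the shared scan date 2.12. Alas1 was the only one of 15 measured genes of heme synthesis and breakdown to pass, and the median of that list was 0.04. Fech, the last enzyme of the pathway, had a change of 0.04 and Cpox, an earlier step, -0.22 (adjusted p = 1 and 0.978).

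Alas1 was also the only one of 26 measured vitamin B6 enzymes to pass. Csad, a B6 enzyme of taurine synthesis, measured 10.57, 9.70, 9.71 and 10.18 with vehicle and 9.39, 8.40, 8.66 and 8.83 with isoniazid. The groups did not overlap, but the log2 change of -1.22 did not pass (adjusted p = 0.299), and it did with the narrow arrays left out (-1.41, adjusted p = 0.0434). Pdxk, the kinase that activates vitamin B6, had a change of 0.41 without overlap (adjusted p = 0.331). The aspartate aminotransferase gene Got1 measured 10.23 to 10.76 with vehicle and 9.83, 10.81, 11.50 and 11.64 with isoniazid, so the groups overlapped.

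Several genes of the mitochondrial respiratory chain rose by less than 1.6-fold. Cycs, the electron carrier cytochrome c, measured 9.77, 9.81, 9.74 and 9.95 with vehicle and 10.24, 10.56, 10.40 and 10.44 with isoniazid. The groups were apart, and the log2 change was 0.59 (SE 0.12, adjusted p = 0.00409). Its 3 probe sets disagreed, from -0.98 to 0.59, so the rise is that of the brightest probe set. Atp5o, a subunit of ATP synthase, measured 10.94, 10.83, 10.81 and 10.92 against 11.25, 11.27, 11.39 and 11.04. Again no isoniazid animal lay among the controls (log2 change 0.36, SE 0.08, adjusted p = 0.01), while a second probe set gave -0.03.

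Ndufb10, a subunit of complex I, rose by 0.46 (adjusted p = 0.00749), and Micos13, which helps shape the inner membrane, by 0.47 (adjusted p = 0.0403), with a second probe set at 0.09. Atp5k, another subunit of ATP synthase, rose by 0.45 (adjusted p = 0.0125), with isoniazid animal 1 at 11.22 just below vehicle animal 2 at 11.25 and another probe set at -0.06. The oxidative phosphorylation list, which holds Cycs and Atp5o but not the other 3, had 29 measured genes. Of these 2 rose and 0 fell, and 25 were above 0 where 52.3% of all genes were. The median was 0.14, beside 0.11 in the mean of the other strains. Ndufb3 (0.44) and Cox7a2 (0.30), subunits of complexes I and IV, had no overlap but missed the threshold (adjusted p = 0.0631 and 0.068). With the narrow arrays left out, 12 of the 29 rose, where 1.26% of all genes did, and 0 fell, and the median without isoniazid animal 1 was 0.26.

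Promoter sequence from RefSeq (assembly GRCm38.p6), covering 250 bases before to 50 bases after a transcript start, was available for 28 of the 31 genes and was searched for GCATGCGC and its reverse complement GCGCATGC, a core of the motif of nuclear respiratory factor 1, a factor known for mitochondrial genes. This spelling was chosen after other spellings had been tried on these genes. The letters were present in 5 of the 28, in 3 of 16 genes that rose and 2 of 12 that fell, and in 4.68% of 14411 genes on the arrays and 3.05% of all 27025 genes with such a window. The sequences are shown because they place the same letters in genes of both directions. The matches, 30 bases each and 5' to 3' with the motif letters in capitals, lie at chr9:106247906-106247935 on the minus strand for Alas1, chr6:50566611-50566640 on the minus strand for Cycs, chr5:108434430-108434459 on the minus strand for Atp5k, chr14:34310584-34310613 on the plus strand for Glud1 and chr3:104638603-104638632 on the plus strand for Slc16a1. The motif begins 195, 60, 50, 132 and 50 bases before the annotated start. In Alas1 and Atp5k both spellings overlap, and in a window around another Alas1 start the letters lie after the start. A match describes the sequence only.
Alas1: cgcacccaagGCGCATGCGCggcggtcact
Cycs: catgctagctcGCATGCGCgcgcacaaacc
Atp5k: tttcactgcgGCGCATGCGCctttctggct
Glud1: cccgcccgcgaGCATGCGCaccaagcccat
Slc16a1: ccaccccctgtGCGCATGCtccggcccccg

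Genes of the secretory pathway and of membrane lipids were among the other genes that rose. Mlec, a lectin of the endoplasmic reticulum that binds glucose-bearing glycans, rose by 0.63 (adjusted p = 0.047), with 4 probe sets from 0.12 to 0.63, and by 0.56 without isoniazid animal 1, which did not pass (adjusted p = 0.132). Tmx2, a thioredoxin-related membrane protein, rose by 0.41 (adjusted p = 0.0412), with a second probe set at 0.14. Cope, a subunit of the COPI vesicle coat, rose by 0.53 (adjusted p = 0.03), and by 0.51 without isoniazid animal 1 (adjusted p = 0.0668). Agpat3, an acyltransferase that makes phosphatidic acid, measured 9.21, 9.26, 9.34 and 9.14 with vehicle and 9.64, 9.79, 9.99 and 9.76 with isoniazid. Its groups were clearly apart (log2 change 0.56, SE 0.11, adjusted p = 0.00505), while its 4 probe sets ran from 0.10 to 0.56. Of 22 measured genes of the unfolded protein response and of protein folding, 0 passed, and the median was 0.13. P4hb, a disulfide isomerase, came nearest, at 0.40 without overlap (adjusted p = 0.093).

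Gpc1, a heparan sulfate proteoglycan of the cell surface, measured 6.04, 6.38, 5.74 and 5.58 with vehicle and 6.57, 7.30, 7.46 and 6.46 with isoniazid. Isoniazid animals 2 and 3 were the highest, isoniazid animal 4 lay just above vehicle animal 2, and the log2 change was 1.01 (SE 0.25, adjusted p = 0.0455). Trmt10a, a tRNA methyltransferase, rose by 0.81 (adjusted p = 0.0455), with 3 probe sets from 0.29 to 0.81, and by 0.77 without isoniazid animal 1 (adjusted p = 0.0925). The tetraspanin gene Tspan31 rose by 0.38 (adjusted p = 0.0112), with 3 probe sets from 0.03 to 0.38. Gm11266 and Gm7694, 2 genes known by model names, rose by 0.96 and 0.72 (adjusted p = 0.0108 for both), from low vehicle levels of 2.88 to 3.46 and 2.52 to 3.17.

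Enzymes of drugs and steroids, a serpin pseudogene and Acot1 had the largest falls. Cyp3a16 measured 5.54, 7.91, 9.43 and 5.93 with vehicle and 2.41, 4.60, 2.06 and 5.13 with isoniazid. The groups did not overlap, yet the controls alone spanned nearly 4 log2 units, and the log2 change was -3.65 (SE 0.82, adjusted p = 0.0124). Without isoniazid animal 1 it was -3.27 and did not pass (adjusted p = 0.0738), while with all narrow arrays left out it did (adjusted p = 0.0251). Mouse 3A genes are closely related in sequence, and cross-binding by a related transcript was not tested. Of 22 measured targets of the drug-sensing receptors CAR and PXR, Cyp3a16 was the only one that passed, and the median was -0.04.

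Cyp2b10, the classical CAR target, measured 7.96, 7.75, 7.87 and 7.72 with vehicle and 7.24, 9.22, 9.05 and 9.15 with isoniazid. Isoniazid animals 2 to 4 were above all controls and isoniazid animal 1 was below all controls. The log2 change was 0.84 (adjusted p = 0.852), and 1.32 without isoniazid animal 1, which did not pass either with the narrow arrays left out (adjusted p = 0.2).

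Hsd3b5, a 3-ketosteroid reductase known for its higher level in male mouse liver, measured 7.29, 6.39, 6.70 and 5.73 with vehicle and 3.74, 4.57, 5.36 and 3.39 with isoniazid. Isoniazid animal 3 came closest to the controls without reaching them, and the log2 change was -2.27 (SE 0.46, adjusted p = 0.00409). Serpina4-ps1 measured 7.99, 6.13, 4.36 and 4.81 against 3.67, 3.22, 3.27 and 3.03. Its isoniazid values were close together and its controls were not (log2 change -2.52, SE 0.62, adjusted p = 0.0463), and without vehicle animal 1 the change was -1.80. Its 3 probe sets ran from -2.52 to -1.34. Acot1 measured 8.95, 8.79, 8.57 and 9.70 against 5.53, 7.93, 7.14 and 7.48. Isoniazid animal 1 was the lowest, and the log2 change of -1.98 (SE 0.40, adjusted p = 0.00409) became -1.49 without it and missed the threshold (adjusted p = 0.105), while with all narrow arrays left out it passed (adjusted p = 0.0233).

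Acot1 was the only one of 25 measured PPAR alpha targets and genes of fatty acid oxidation to pass, in a list with a median of 0.02. Acot2, its mitochondrial relative, had a change of -1.25 with overlap (adjusted p = 0.189). Pdk4, the kinase that restrains pyruvate dehydrogenase, measured 6.85 to 7.95 with vehicle and 5.35 to 6.65 with isoniazid, a change of -1.57 that did not pass (adjusted p = 0.189). Cpt1a, which admits fatty acids to mitochondria, and Creb3l3, a transcription factor of the fasted liver, had changes of 0.35 and 0.35 (adjusted p = 0.447 and 0.11), and both passed with the narrow arrays left out (0.50 and 0.39, adjusted p = 0.0233 and 0.00831).

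Carbon and nitrogen enzymes and transporters also fell. Glud1, glutamate dehydrogenase, measured 12.00, 11.92, 12.02 and 11.80 with vehicle and 11.50, 11.44, 11.31 and 11.66 with isoniazid. All isoniazid animals were below all controls (log2 change -0.46, SE 0.09, adjusted p = 0.00409). Slc16a1, the monocarboxylate transporter MCT1, measured 10.15, 9.63, 10.18 and 10.23 against 9.49, 9.25, 8.89 and 9.38. Vehicle animal 2 stood below the other controls but above every isoniazid animal (log2 change -0.80, SE 0.19, adjusted p = 0.0412), and a second probe set gave 0.02. Mthfd2l, an enzyme of mitochondrial folate metabolism, fell by 0.82 (adjusted p = 0.0112), with other probe sets reaching 0.12, and by 0.70 without isoniazid animal 1 (adjusted p = 0.0955). Among 22 measured genes of urea synthesis and amino acid breakdown, 0 passed and 19 were above 0, with a median of 0.10. Kmo, of tryptophan breakdown, had the clearest separation there (0.43, adjusted p = 0.189).

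Signalling and membrane genes made up the rest of the falls. Ndrg1, a gene that responds to hypoxia and stress, measured 8.46, 7.75, 8.48 and 8.34 with vehicle and 6.83, 7.13, 6.72 and 7.58 with isoniazid. The gap between the groups was small at vehicle animal 2 and isoniazid animal 4 (log2 change -1.19, SE 0.24, adjusted p = 0.00409). The 5 Ndrg1 probe sets ran from -1.19 to -0.35, and the one used carries the same suffix as that of Apoa4. Pdgfc, a growth factor, measured 5.75, 5.97, 6.82 and 6.05 against 4.99, 5.21, 4.86 and 5.07. Its isoniazid animals were tightly grouped below all controls (log2 change -1.12, SE 0.24, adjusted p = 0.00783). Mpzl1, a membrane glycoprotein, fell by 0.73 (adjusted p = 0.0108), with a second probe set at -1.45, and the sialomucin gene Cd164 by 0.39 (adjusted p = 0.0108), with a second at 0.03. Tmed6, of vesicle transport, fell by 1.02 from vehicle levels of 2.99 to 4.04 (adjusted p = 0.0412). Pcp4l1 fell by 1.35 (adjusted p = 0.047), and by 1.13 without isoniazid animal 1 (adjusted p = 0.181).

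The second comparison asked whether MRL/MpJ responded differently from the mean of the other 30 strains. By limma, 0 of 18146 genes (0%) passed for this difference, with 663 at an unadjusted p under 0.05. With the strains as replicates the count was also 0, with 243 at an unadjusted p under 0.05. Both 663 and 243 are under 0.05 of the 18146 genes, the share that such a threshold gives on average with no difference. Leaving out the narrow arrays gave 4 genes (0.022%), Per3 among them. The 5 genes with the smallest p were Gm11266, Gm7694, Slc16a1, Mtss1 and Cyp3a16, with adjusted p of 0.31 for Gm11266 and 0.842 to 0.901 for the others. Gm11266 changed by 0.96 in MRL/MpJ and by a mean of 0.01 elsewhere, where its range was -0.52 to 0.46. Slc16a1 changed by -0.80 against a mean of -0.03, the lowest of the 31 strains, with the next at -0.70 in NOD/LtJ. That gap is within the SE of 0.19 of the MRL/MpJ change. Mtss1, a scaffold of actin and membranes, changed by 0.36 against -0.24, but its 6 probe sets ran from -0.33 to 0.36 in MRL/MpJ.

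Across all genes the MRL/MpJ effects had Pearson r of 0.475 with the mean of the other 30 (0.42 without isoniazid animal 1), rank 10 of the 31 strains compared in the same way. This r is over genes, which are not independent replicates. The slope on that mean was 0.90. MRL/MpJ ranked 22 of 31 by number of changed genes and 26 by the SD of its effects over all genes, which was 0.21, counted from the highest. The strains had 2 to 4 isoniazid animals each, so these counts and SDs were not on an equal footing. The MRL/MpJ count also moved with the arrays in the fit.

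**Figure D2:**
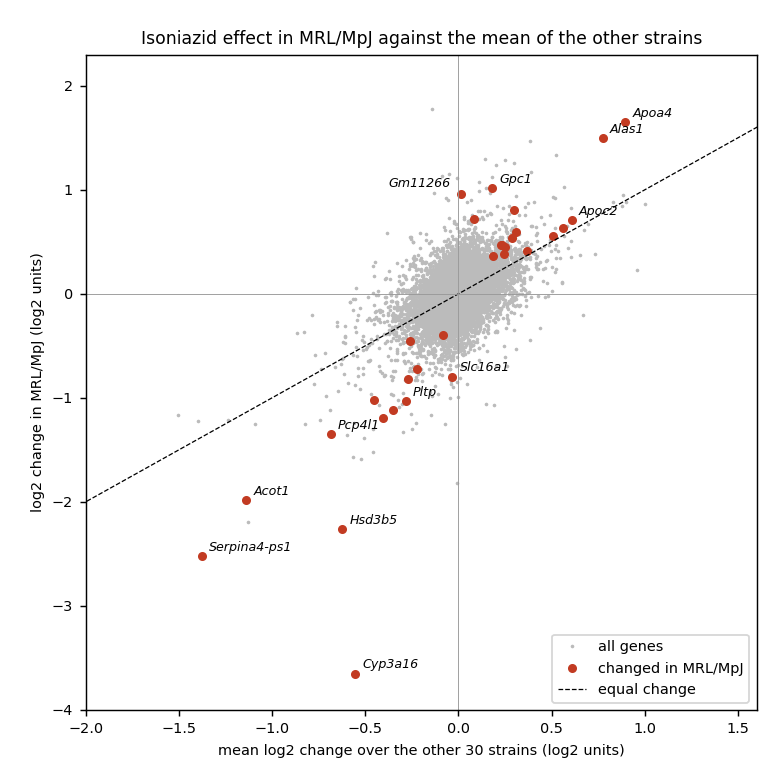
Each point is a gene, with its mean log2 change over the other 30 strains on the horizontal axis and its log2 change in MRL/MpJ on the vertical axis, both in log2 units. Red points are the 31 genes that changed in MRL/MpJ, and the dashed line marks equal change. Cyp3a16 lies furthest below the line, at -3.65 against -0.56, and no gene passed the test of the difference.

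All 31 genes had the same sign in MRL/MpJ as the mean of the other 30 strains and a larger size. They were picked for their change in MRL/MpJ, so nothing is read from the larger size. The MRL/MpJ effect was the highest or lowest of the 31 strains for 9 of them, 4 and 5, where 2.31% of all genes had such a rank, and it was among the 4 highest or lowest for 24, against 14.8%. These ranks use the same arrays as the calls. The share of all genes with the same sign in both was not counted. For some of the 31 genes the mean of the other strains was near 0. Gm11266 had a mean of 0.01, with 16 other strains above 0 and 14 below. Slc16a1 had -0.03, with 14 above and 16 below.

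The changes in the other strains were set beside the strain's own values gene by gene. Apoc2 changed by 0.71 against a mean of 0.61, rank 10 from the highest, and was higher in all 30 other strains. Apoa4 changed by 1.65 against 0.89, with the other strains between -0.04 in PWK/PhJ and 2.94 in LG/J. Alas1 had the second highest change, 1.49 against 0.77, below 1.73 in NZW/LacJ. Acot1 fell in all 31 strains, by a mean of 1.14 in the other 30. Gpc1 was the highest of all strains at 1.01, with the next at 0.75 in AKR/J. Pltp was the lowest at -1.03, with the next at -1.02 in KK/HIJ, which is within the SE of 0.21. Cyp3a16 ranged widely in the other strains, from -4.63 in AKR/J to 1.59 in C3H/HeJ, and was above 0 in 11 of them. Its vehicle means in those strains ran from 1.69 to 8.64. The lowest value on any array was 1.15, so strains with a low vehicle level had little room to fall.

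Some genes with large mean changes in the other strains did not pass in MRL/MpJ. Scd1, which desaturates saturated fatty acids, measured 13.43, 12.29, 12.81 and 13.04 with vehicle and 11.70, 11.97, 11.74 and 11.50 with isoniazid. The groups did not overlap, and the change of -1.16 (adjusted p = 0.482) stood beside a mean of -1.51 elsewhere. Csad had -1.22 beside -1.40, and Dnase2a, a lysosomal nuclease, -1.22 beside -1.24, which passed with the narrow arrays left out (-1.60, adjusted p = 0.0137). Pgm3, of hexosamine synthesis, had 0.88 beside 0.90 and Cgref1 0.95 beside 0.88, both without overlap (adjusted p = 0.17 and 0.339), and Pgm3 passed with the narrow arrays left out. Dio1, the thyroid hormone deiodinase, had -0.38 beside -0.87, with isoniazid animal 4 at 10.14 above every vehicle animal. Psat1, of serine synthesis, had 0.23 beside 0.96, from levels under 3.2 in all 8 animals.

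**Figure D3:**
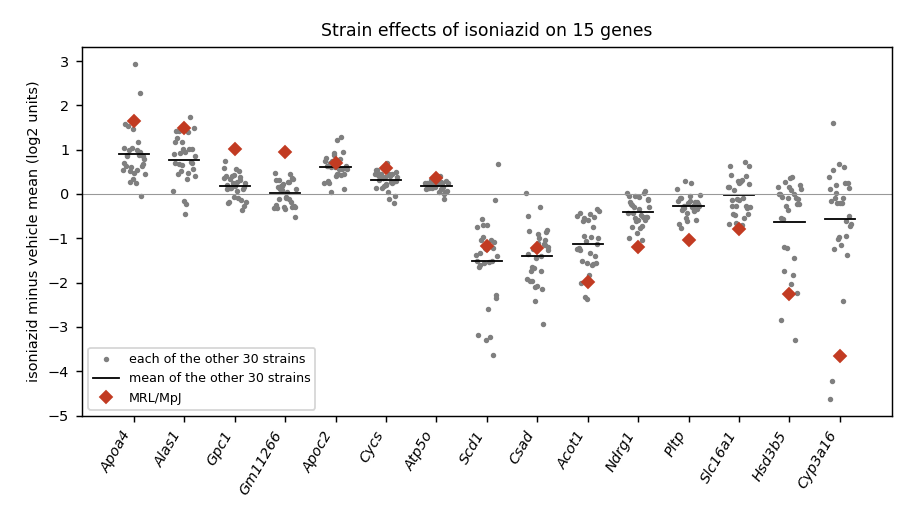
Isoniazid minus vehicle mean for 15 genes, in log2 units. Grey points are the other 30 strains, black bars their mean and red diamonds MRL/MpJ. Gpc1 and Gm11266 were highest, and Ndrg1, Pltp and Slc16a1 lowest, in MRL/MpJ, while Scd1 and Csad lay within the range of the other strains. The next lowest was NOD/LtJ for Ndrg1 (-1.04) and Slc16a1 (-0.70), and KK/HIJ for Pltp (-1.02), each within the SE of the MRL/MpJ change.

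Vehicle levels also had a place among the strains. Of the 17 genes that rose, 11 had a vehicle mean among the 8 lowest of the 31 strains, where 24.5% of all genes did, and Ndufb10 and Atp5o had the lowest of all. Of the 14 that fell, 9 had one among the 6 highest, against 14.6% of all genes, and Mthfd2l had the highest of all. The vehicle mean enters both the level and the change, so the measures are not independent. The cutoffs also differ between the directions, and some of these genes lie exactly on them. Apoa4, Apoc2 and Cope had rank 24 from the highest, and Cyp3a16 and Tmed6 rank 6, so nothing is read from these counts. Among the genes that rose, Gpc1 had the highest vehicle level of all strains and also the highest change. A sequence variant under a probe can shift the level of a strain, and its part was not tested.

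Fat storage and synthesis were examined because the strain was recorded without steatosis. Of 25 measured genes of lipid droplets and triglyceride turnover, 0 passed, and the median was 0.04, as for the mean effect of the other strains. Without isoniazid animal 1 the MRL/MpJ median was 0.17. Cidec, a lipid droplet protein that rises with fat storage, measured 4.25, 4.21, 3.95 and 4.33 with vehicle and 4.27, 5.30, 5.49 and 5.15 with isoniazid. Isoniazid animals 2 to 4 were above all controls and isoniazid animal 1 lay among the controls. The change was 0.87 (adjusted p = 0.572), or 1.13 without isoniazid animal 1, beside a mean of 1.00 elsewhere. Plin2, a coat protein of lipid droplets, changed by 0.10, from 11.85 to 12.25 with vehicle to 12.11 to 12.21 with isoniazid.

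Of 20 measured genes of fatty acid synthesis, 0 passed and 16 were above 0. Fads2, which desaturates polyunsaturated fatty acids, had a change of 0.65 without overlap (adjusted p = 0.198) and passed with the narrow arrays left out (0.78, adjusted p = 0.02). Fasn, the fatty acid synthase, had 0.47 and Acaca, which makes malonyl-CoA, 0.28 (adjusted p = 0.81 and 0.852). Of 19 measured genes of cholesterol synthesis, 0 passed and 16 were above 0. In 4 of them the isoniazid animals were all above the controls, as in 2.09% of all genes. The median of 0.35 was the highest of the 36 lists, beside 0.22 in the mean of the other strains. Summed levels of the list (log2 of the sum of linear values) overlapped, at 12.72 to 12.92 with vehicle and 12.70 to 13.25 with isoniazid. Lss, which closes the sterol ring, measured 6.76, 6.70, 6.75 and 6.56 against 7.40, 7.69, 7.16 and 7.54. The groups were well apart (0.75, adjusted p = 0.289). Dhcr7 and Mvk, the last and an early step, had 0.64 and 0.49 without overlap (adjusted p = 0.272 and 0.435), and Tm7sf2, a sterol reductase, had -0.64.

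Genes of isoniazid's own metabolism did not pass, with 0 of 14 measured. Nat1 and Nat2, the acetyltransferases, had changes of 0.27 and 0.20 with overlap (adjusted p = 0.961 and 0.978). Cyp2e1, the P450 most often tied to isoniazid, measured 13.62 to 13.70 with vehicle and 13.50 to 13.59 with isoniazid, a change of -0.10 (adjusted p = 0.837). Among 26 genes of bile acid synthesis and transport 0 passed. Cyp2c70, which makes the muricholic acids of mice, measured 11.40, 11.06, 11.51 and 10.91 with vehicle and 11.21, 9.96, 9.96 and 10.04 with isoniazid. Isoniazid animal 1 lay among the controls and the other 3 well below them, and the change of -0.93 (adjusted p = 0.0907) became -1.24 with the narrow arrays left out (adjusted p = 0.00382).

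The circadian clock is a loop in which Arntl drives the period and cryptochrome genes that repress it, with Dbp, Tef and Usp2 among its outputs. Of 18 measured clock genes 0 passed. Arntl measured 6.90, 6.08, 7.30 and 6.99 with vehicle and 5.26, 5.56, 5.27 and 5.97 with isoniazid. All isoniazid animals were below all controls (log2 change -1.30, adjusted p = 0.124), and another probe set gave 0.08. Per3 measured 5.60, 6.62, 5.08 and 5.36 against 5.71, 7.62, 7.42 and 6.38. Isoniazid animals 2 and 3 were the highest and isoniazid animal 1 lay among the controls (1.12, adjusted p = 0.11).

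Tef had a change of 0.58 without overlap (adjusted p = 0.18) and Usp2 one of 0.92 (adjusted p = 0.207). With the narrow arrays left out, 4 of the 18 rose, where 1.26% of all genes did, Per3 (1.48, adjusted p = 0.00441), Usp2, Per2 and Dbp, the last 2 named after their values were seen. In all 4, isoniazid animals 2 to 4 still overlapped the controls. Within the shared scan date the change of Per3 was 0.28. The other 30 strains had a mean of -0.01 for Per3, with the highest at 1.39 in RIIIS/J, and of -0.25 for Arntl. The hour of day at which each animal was sampled is not in the labels used here, and its part was not tested.

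**Figure D4:**
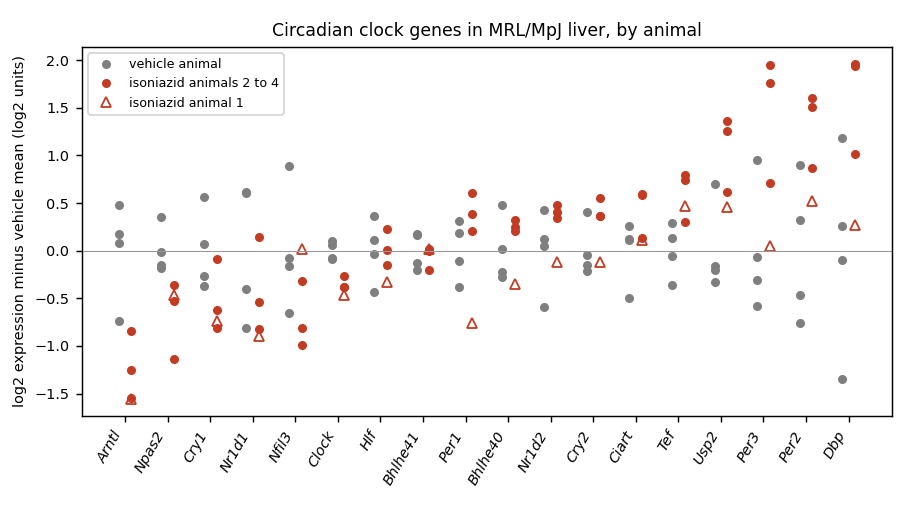
The 18 measured clock genes in MRL/MpJ liver, each animal's log2 level minus the vehicle mean in log2 units, with genes along the horizontal axis in order of their change. Grey circles are vehicle animals, red circles isoniazid animals 2 to 4 and open triangles isoniazid animal 1. All isoniazid animals were below all vehicle animals for Arntl, and isoniazid animal 1 was the lowest isoniazid animal for Per3, Per2 and Dbp.

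Immediate early genes had the lowest median of the lists, -0.40 over 23 measured genes, of which 0 passed and 19 were below 0 where 47.7% of all genes were. In 6 of the 23 the isoniazid animals were all below the controls, as in 2.03% of all genes. The median was -0.21 without isoniazid animal 1 and -0.19 in the mean of the other strains. Dusp1, a phosphatase of MAP kinases, measured 9.33, 9.95, 9.74 and 9.49 with vehicle and 6.86, 8.61, 8.15 and 8.56 with isoniazid. Isoniazid animal 1 was the lowest of all (-1.58, adjusted p = 0.483). Ier2 came nearest to the threshold (-0.83, adjusted p = 0.0925) and was -0.57 without isoniazid animal 1. Jun measured 4.10 in isoniazid animal 1 and 5.78 to 7.87 in the other 3, against 7.24 to 8.15 with vehicle.

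Targets of p53, the regulator of the DNA damage response, had a median of -0.33, 16 of 18 below 0 and 0 that passed. The median was the same to 2 decimals without isoniazid animal 1, and -0.15 in the mean of the other strains. Cdkn1a, the cell cycle inhibitor, measured 6.71, 5.40, 7.69 and 7.26 against 5.46, 4.86, 4.98 and 6.33, which overlap (-1.36, adjusted p = 0.32). Of 27 interferon-induced genes 0 passed and 22 were below 0, with a median of -0.20 beside -0.24 in the other strains. Rsad2, an antiviral enzyme, had a change of -0.87 without overlap (adjusted p = 0.322).

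**Figure D5:**
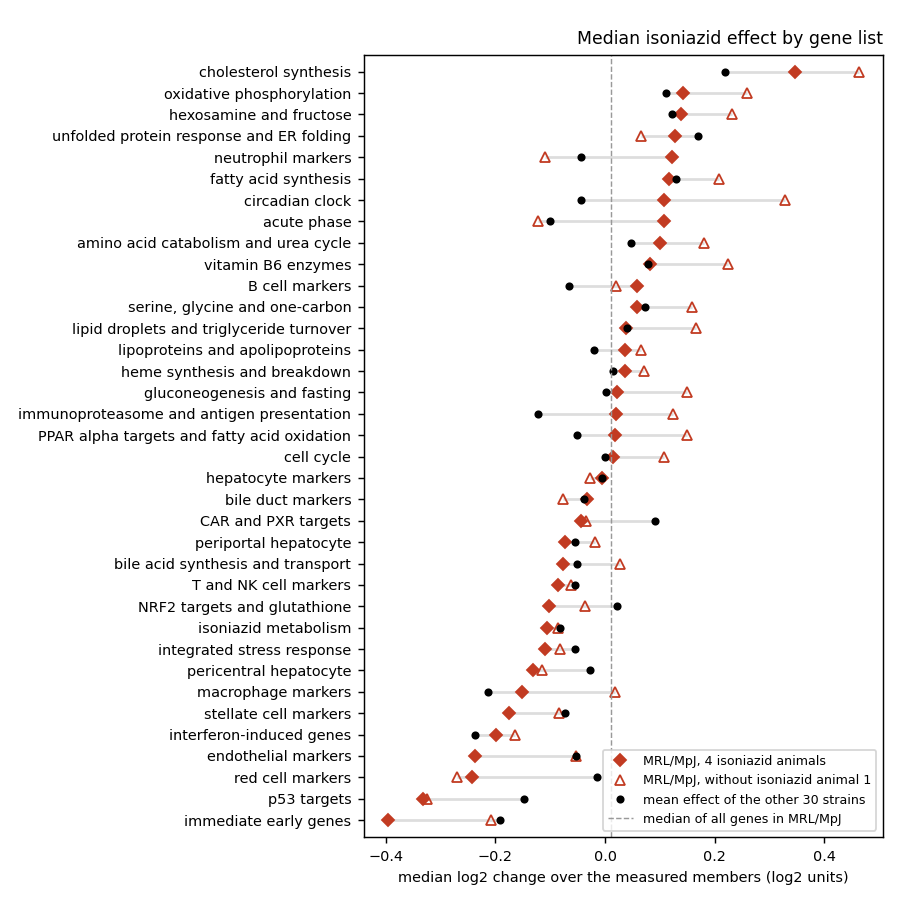
Median log2 change over the measured members of 36 gene lists, in log2 units. Red diamonds use all 4 isoniazid animals of MRL/MpJ, open triangles leave out isoniazid animal 1, black points are the mean effects of the other 30 strains and the dashed line is the median of all genes, 0.01. Cholesterol synthesis was the highest at 0.35 and immediate early genes the lowest at -0.40, and the medians of acute phase genes, neutrophil markers, macrophage markers and bile acid genes changed sign without isoniazid animal 1.

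Marker genes of other cell types are given beside these lists because the samples were whole liver, in which fewer cells of a type and less RNA per cell cannot be told apart. Hepatocyte markers had a median of -0.01 over 11 genes. Of 17 macrophage markers 14 were below 0, with a median of -0.15 that became 0.02 without isoniazid animal 1. In the mean of the other strains the median was -0.21. The summed level of the macrophage markers (log2 of the sum of linear values) was 12.42 to 12.79 with vehicle. It was 11.94 in isoniazid animal 1 and 12.27 to 12.84 in the other isoniazid animals. Of 14 endothelial markers 12 were below 0, with a median of -0.24 that became -0.05 without isoniazid animal 1. In the mean of the other strains it was also -0.05. The summed level of the endothelial markers was 10.56 to 11.03, 10.09 and 10.55 to 10.96 in the same order. The array gives no zero, and the dimmest markers of these lists averaged 4.77 and 3.39. None of these markers passed, and their part in the results was not tested.

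Acute phase genes and neutrophil markers were high in isoniazid animal 1. The summed level of 27 acute phase genes was 16.93 to 17.30 with vehicle, 17.68 in isoniazid animal 1 and 16.84 to 17.05 in the other isoniazid animals. That of 10 neutrophil markers was 8.74 to 11.74, 12.99 and 8.83 to 10.29. Lcn2, an iron-trapping protein that is in both lists, measured 12.94 in isoniazid animal 1, 7.91 to 9.86 in the other isoniazid animals, and 7.90, 8.43, 11.60 and 8.16 with vehicle. Serpina3n, a protease inhibitor of the acute phase, was 12.90 in isoniazid animal 1 and 11.99 to 12.18 in the other 3, against 11.53 to 12.23 with vehicle. Their medians moved from 0.11 to -0.12 and from 0.12 to -0.11 when that animal was left out, and 0 members of either list passed.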

How the data were processed

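The authors deposited log2 values per probe set from Affymetrix mouse arrays, made with the RMA method of Affymetrix Power Tools, according to the submitters' processing notes (versions not given in the sources used here). The method equalises array distributions, so a shift of all genes would be removed. Of 44721 probe sets, 34717 had 1 gene symbol, 872 several and 9072 none listed, and 60 were controls. Through Entrez numbers 34514 were matched to the GRCm38.p6 gene table, and 0 symbols changed. The probe set with the highest mean stood for each of 18146 genes.

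All 235 arrays were fitted in limma 3.58.1 (R 4.3.3; lmFit, eBayes) as 62 groups of strain and treatment, with 173 residual degrees of freedom, and contrasts gave the MRL/MpJ effect and its difference from the unweighted mean of 30 strains. Tests were two-sided, with Benjamini-Hochberg adjustment over all genes, and the script was tested on simulated data. Replicates were different animals by the labels, and their number limits the precision.

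Members, the 36 lists (649 of 713 entries measured) and the rule for named genes were chosen with earlier results of these data known. The rule took the 12 highest and 12 lowest non-overlapping calls, the 5 smallest p for the difference, up to 4 members per list by t and a fixed set. Tspan31, Atp5k, Cd164 and Pcp4l1 were added to complete the calls. Alternatives covered scan date, centring, probe sets, dim genes, eBayes settings, narrow arrays, fold threshold, animal pairing, left-out animals and strains, and the strains compared.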

Additional observations from a re-analysis of the deposited data

Results flagged for a closer look

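In 14 of 240 groups of 4 animals checked, over 120 named genes, 1 animal stood apart from its group by Dixon's criterion. Chance alone does so in about 1 of 20 groups. Of the 14, 6 were isoniazid animal 1, the narrow-spread array. It was the highest of its group for Cyp2c70 (11.21) and the lowest for Alas1 (10.10), Cyp2b10 (7.24), Slc40a1 (10.77), an iron exporter, Lipe (5.88), hormone-sensitive lipase, and Fos (4.30), an early response gene. Vehicle animal 4 was the highest of its group for Alas1 (10.60) and the lowest for Amdhd2 (6.39), of hexosamine breakdown, and Fos (6.16). Vehicle animal 3 was the highest for Pltp (10.05) and the lowest for Pcp4l1 (6.71) and Ehd3 (6.61), an endothelial marker. Vehicle animal 2 was the lowest for Slc16a1 (9.63) and the highest for Usp2 (7.92).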

How the results depend on the processing

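The count of 31 genes became 17 with arrays centred on their medians and 268 with the narrow arrays left out. Leaving out 1 animal at a time gave 8 (without isoniazid animal 3) to 46 (without isoniazid animal 1), with 12 without isoniazid animal 2, 11 without vehicle animal 1 and 14 without vehicle animal 4. The MRL/MpJ arrays alone gave 0 by limma, 0 with the animal numbers as a replicate block, and 17, with 3 of the 31 among them, without isoniazid animal 1, an alternative chosen after seeing the data. The other alternatives gave 21 to 36, counts that do not show how many of the 31 were kept. Averaging the probe sets of each gene kept 18 of the 31, lost 12 and turned the sign of 1. Adding the scan date as a term kept 23 and lost 8, while other eBayes settings kept all 31. The difference from the other 30 strains gave 0 in every alternative except with the narrow arrays left out, where 4 passed: Per3, and Bpifb1, Dhrs7b and Osbpl3, named after their values were seen. The cause was not tested. Animal numbers did not pair the samples (correlations of deviations -0.127, 0.305, -0.2 and -0.158), and the fit with the replicate block called 28 genes, 26 of them among the 31.

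Changes of sign were seen for Cycs (-0.15), Mdm2 (0.056) and Fech (-0.051) with the mean of all probe sets, for Fgf21 with the scan date as a term (0.17), with the narrow arrays or isoniazid animal 1 left out (0.20) and without vehicle animal 2 (0.013), and for Srebf1 without vehicle animal 4. With 1 animal left out at a time, Fgf21 ran from -0.34 to 0.20 and Srebf1 from -0.014 to 0.24. Among the 31 genes and the 5 with the smallest p for the difference from other strains, that difference changed sign for Cycs (-0.43), Tmx2 (-0.13) and Atp5o (-0.028) with the mean of all probe sets, for Apoc2 (-0.016), Mlec (-0.059) and Tmx2 (-0.065) against steatosis strains only, for Agpat3 without isoniazid animal 3, and for Tmx2 without isoniazid animal 4 and without vehicle animal 4. Over left-out animals these ran from -0.015 to 0.10 for Agpat3 and from -0.040 to 0.13 for Tmx2. Outside that set, without isoniazid animal 1 the difference also turned for Acot2 (-0.16 to 0.20), Cidec (-0.13 to 0.13), Csad (0.17 to -0.016), Dnase2a (0.019 to -0.36), Pgm3 (-0.016 to 0.033) and Blvrb (-0.054 to 0.056), and, except for Csad, also with the narrow arrays left out. None of these differences had passed.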

Other observations

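Hexosamine and fructose genes are a group not described above. Of 14 measured, 0 passed and 10 were above 0, with a median of 0.14 beside 0.12 in the mean of the other strains. With the narrow arrays left out 2 rose, Pgm3 (0.93, adjusted p = 0.0392) and Amdhd2 (0.51, adjusted p = 0.0334), 2 enzymes of N-acetylglucosamine phosphate metabolism. Tkfc, which phosphorylates glyceraldehyde from fructose, measured 8.20, 8.35, 8.42 and 7.74 with vehicle and 8.67, 8.90, 9.11 and 8.48 with isoniazid, which do not overlap, and its change of 0.61 did not pass (adjusted p = 0.631). Slc2a5, the fructose transporter, had a change of 0.47 beside -0.06 in the other strains, with overlap.

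Of 14 measured pericentral genes 0 passed, and 3 were above 0. Axin2, a feedback inhibitor of that pathway, measured 6.14, 6.20, 6.13 and 6.12 with vehicle and 5.53, 5.69, 5.58 and 5.84 with isoniazid. Tbx3, a transcription factor of pericentral cells, had a change of -0.77 and Porcn, which modifies Wnt proteins, -0.59. These 3 did not overlap between groups (adjusted p = 0.443, 0.62 and 0.207). The list's median was -0.13, and 4 of its 14 genes, Cyp2e1 among them, were without overlap in the lower direction, as were 2.03% of all genes.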
